A study of Mus musculus with 2 samples.

Results

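MicroRNA hairpins are the folded stretches of primary transcripts from which mature miRNAs are cut, and the DNA methylation around them was read here in primary osteoblasts of wild-type (WT) and TET-deficient (TCKO) mice. The autosomal genes annotated as miRNA in GENCODE M21 on the mouse genome GRCm38 gave 2054 hairpins, and each was represented by a window that reached 1 kb to either side of its midpoint. At least 30 methylation calls in each library were found in 2043 windows, of which 1220 had their midpoint inside a protein-coding gene and 823 outside one. A call is the reading of 1 cytosine of a CG dinucleotide (CpG) on 1 sequenced fragment as methylated or not, and the level of a window is its methylated calls as a percent of all its calls.

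The study asked how loss of the TET enzymes, which oxidise 5-methylcytosine and so lead to demethylation, alters bone-forming cells, and whole genome bisulfite sequencing (WGBS) was one of its assays. Primary osteoblasts came from 3-day-old C57BL/6 mice and were harvested after 3 days of culture. The TCKO mice carried Prx1-Cre together with the floxed alleles Tet1fl/fl, Tet2fl/fl and Tet3fl/fl, and the WT mice are labelled wild type. Prx1-Cre is active in the early limb and part of the skull mesenchyme, so cells of other origin in a culture keep their Tet genes. Each genotype has 1 library, so the spread between animals is unknown and a test sets one library against the other, not the genotypes. Bisulfite conversion reads 5mC and 5hmC alike.

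A primary miRNA transcript is cleaved by Drosha in the nucleus and by Dicer in the cytoplasm, and the mature strand guides Argonaute to messenger RNAs that pair with its seed. The seed is the stretch from base 2 to base 8, and miRNAs that share it form a family with largely shared targets. Many hairpins lie in introns and are made from the host transcript, while others have promoters of their own that can be far away. In the osteoblast lineage, miRNAs that target Runx2, the master transcription factor of the lineage, restrain differentiation, and others promote it by targeting inhibitors of Wnt or BMP signalling.

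The mature sequences below belong to hairpins on which the results turn. They are from RefSeq on GRCm38 and are written 5′ to 3′ with the seed in capitals. The first pair lies at the largest gains inside genes. The members of the miR-199 family share the seed CAGUAGU although their hairpins differed in methylation. The muscle miRNA miR-206 and miR-802 lie outside protein-coding genes. The miR-27a, miR-24, miR-30c and miR-34b hairpins had called gains among miRNAs that restrain osteoblasts. The 3 let-7 sequences share the seed GAGGUAG and lie at hairpins with gains and at 1 with almost no methylation.
mmu-miR-3109-5p (Mir3109): aAUGGAUGcgaugguucccaugcu
mmu-miR-214-3p (Mir214): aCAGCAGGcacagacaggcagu
mmu-miR-199a-3p (Mir199a-1 and Mir199a-2): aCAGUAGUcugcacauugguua
mmu-miR-199b-3p (Mir199b): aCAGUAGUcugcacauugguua
mmu-miR-206-3p (Mir206): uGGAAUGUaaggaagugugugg
mmu-miR-802-5p (Mir802): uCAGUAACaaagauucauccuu
mmu-miR-27a-3p (Mir27a): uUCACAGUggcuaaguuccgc
mmu-miR-24-3p (Mir24-2): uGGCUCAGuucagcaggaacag
mmu-miR-30c-5p (Mir30c-2): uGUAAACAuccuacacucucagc
mmu-miR-34b-5p (Mir34b): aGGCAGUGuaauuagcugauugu
mmu-let-7a-5p (Mirlet7a-1): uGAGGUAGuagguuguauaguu
mmu-let-7f-5p (Mirlet7f-1): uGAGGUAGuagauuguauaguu
mmu-let-7i-5p (Mirlet7i): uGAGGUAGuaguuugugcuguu

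The WT library held 261127589 calls and the TCKO library 223645082, and the median hairpin window held 201 and 165 of them. Over all autosomal calls the level was 70.4% in WT and 76.6% in TCKO. Beside the hairpins, the autosomes were read as 1170031 tiles of 2 kb with at least 30 calls in each library, and these give the background for every count. In each of the 3 Tet genes, among exons with at least 50 calls in WT, the exon with the lowest ratio had 62 calls in WT and 1 in TCKO (Tet1), 180 and 50 (Tet2), or 85 and 26 (Tet3). Choosing the lowest ratio favours a low value, and these exons were not matched to the floxed ones. The promoters of Ptprc, Spi1 and Cd79a (blood) and of Pecam1, Cdh5 and Tie1 (endothelium) lay between 64.9% and 80.7% in WT and between 79.8% and 88.1% in TCKO. Those of Col1a1, Col1a2, Runx2, Sp7, Alpl, Postn and Twist1, which mark osteoblasts and mesenchyme, lay between 0.613% and 39.8% in WT and between 1.72% and 69.8% in TCKO, the highest being Postn in both. The epithelial Epcam and Cdh1 were low as well, at 12.6% and 17.5% in WT and 21.3% and 20.3% in TCKO. Shares of other cells in the cultures were not measured, and their part in the differences below was not tested.

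Hairpin surroundings were more methylated in TCKO, by slightly fewer points than the autosomal tiles. The median window rose from 73.9% to 79.7%, with a median difference of 4.40 percentage points (interquartile range 0.191 to 9.45), and 75.6% of windows were higher in TCKO. Over the tiles the median difference was 5.06 points, and 77.3% were higher. With the calls of all hairpin windows pooled, the level went from 62.1% to 67.5%, a difference of 5.37 points (Newcombe 95% interval 5.17 to 5.57). The pooled difference over the tiles was 6.24 points. All intervals here cover counting error only. Windows set in the same way around 1415 snoRNA genes, another class of small RNA genes that often lie in introns, had a median difference of 4.29 points.

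Windows were compared by a 2-sided Fisher exact test on their calls, with p-values adjusted by the Benjamini-Hochberg method across all tiles and hairpin windows together (adjusted exact p). A window was called a gain where this p was below 0.05 and TCKO was higher by at least 20 points, and "rose" or "fell" is written where the p alone was below 0.05. By this rule 141 of the 2043 hairpin windows gained methylation (6.90%), in 125 separate loci, against 6.57% of all tiles. Losses of that size were called in 2 windows, against 0.141% of tiles. Without a minimum difference 412 windows passed the test upward (20.2%) and 17 downward (0.832%), against 21.8% and 0.569% of tiles. Gains of at least 40 points were found in 11 windows (0.538%), against 0.531% of tiles. The shares among hairpins were thus near the background at each of these sizes.

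**Figure D1:**
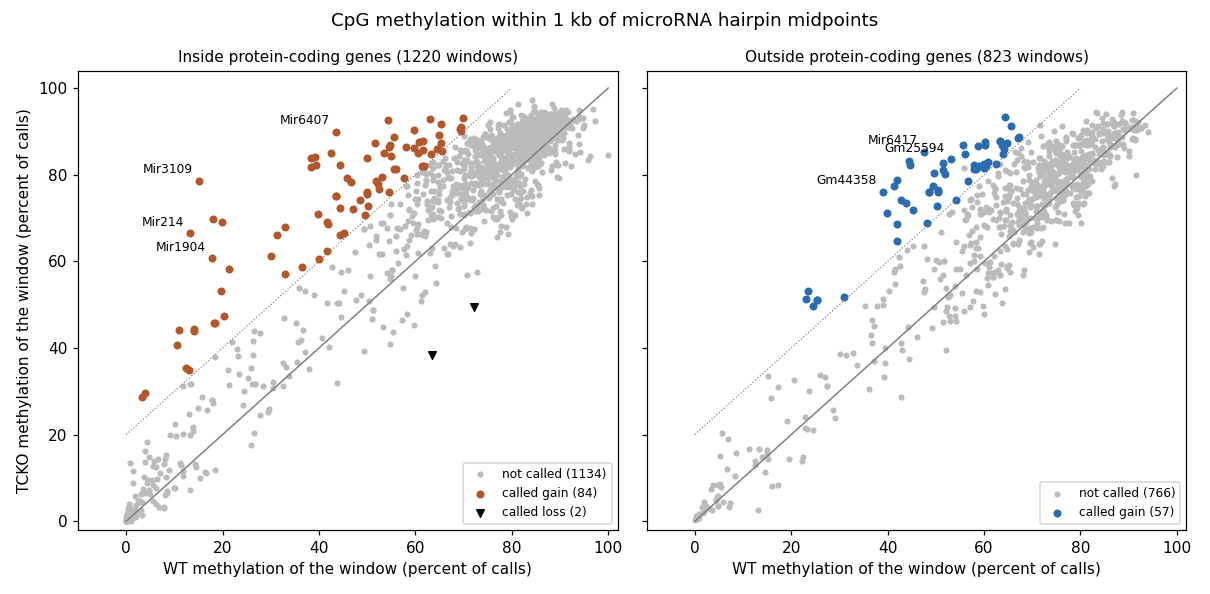
Methylation of each hairpin window in WT (horizontal axis) and TCKO (vertical axis), in percent of calls, for 1220 windows inside and 823 outside protein-coding genes. The solid line marks equal levels and the dotted line a gain of 20 points; 84 inside and 57 outside windows were called gains, and only the inside panel has points that start below 20% and end above 60%.

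Hairpins inside and outside protein-coding genes were called at about the same rate. Inside, 84 of 1220 windows gained (6.89%, against 7.33% of tiles inside such genes), and outside 57 of 823 did (6.93%, against 6.03% of tiles outside). Upward passes of any size numbered 271 inside (22.2%, against 25.9% of tiles) and 141 outside (17.1%, against 18.9%), and downward passes 9 (0.738%, against 0.418%) and 8 (0.972%, against 0.678%). Both losses of at least 20 points were inside (0.164%, against 0.0936%), and none was outside, where 0.176% of tiles had one. At the top of the range, all 11 gains of at least 40 points were inside genes (0.902% of those windows, against 0.619% of tiles inside), and none was outside, where 0.468% of tiles reached it. The pooled difference was 6.13 points inside (5.86 to 6.39) and 4.26 outside (3.95 to 4.58). Over tiles it was 7.02 points inside and 5.67 outside, so the background had a gap in the same direction. In an alternative, cytosines with at least 4 calls in both libraries were averaged within each window, and the windows were then averaged (the mean of cytosine levels). Windows with fewer than 4 such cytosines were left out. The difference was then 6.32 points inside and 6.17 outside, so the gap between the groups was nearly gone. The weight of cytosines, the weight of windows and the set of windows all changed in this step.

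Within genes the share called was similar across positions in the host. Of 1011 windows centred in an intron 6.92% gained, of 99 in a UTR 7.07%, and of 110 in a coding exon 6.36%. Hairpins on the strand of their host gained in 6.69% of 927 windows and those on the opposite strand in 7.51% of 293. Windows that held the start site of a protein-coding gene had a low median WT level of 15.0%, against 49.5% in tiles with a start site. Of these 221 windows 4.98% gained, against 6.73% of such tiles. Without a minimum difference 22.2% passed upward and 2.71% downward, against 24.8% and 2.04% of such tiles. The 1081 hairpins with a Mir name gained in 7.77% of windows and the 962 with another name in 5.93%.

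The starting level separated the windows more than their place did. Of 227 hairpin windows between 40% and 60% in WT, 71 gained (31.3%), against 23.7% of tiles in that range. From 20% to 40% in WT, 20 of 91 hairpin windows gained (22.0%), against 37.9% of tiles. Below 20%, 16 of 185 gained (8.65%, tiles 14.3%), and from 60% to 80% 34 of 899 did (3.78%, tiles 2.98%). At 80% and above, where a gain of 20 points is at the edge of what is possible, no window of 641 was called. Hairpin windows in the 2 lower ranges were therefore called less often than tiles of the same range, and those between 40% and 60% more often, a description without a test of its own. Starting levels were not matched within a range. The median WT level below 20% was 5.32% in hairpin windows and 9.90% in tiles, and from 20% to 40% it was 30.2% and 33.3%. Whether the contrast belongs to hairpins was not tested.

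With calls pooled, the gain was smaller in the hairpins than in the rest of their windows. At least 1 CpG lay within the hairpin itself in 1326 of the 2043 windows. There the hairpins went from 65.9% to 68.3%, a rise of 2.48 points, while the rest of the same windows went from 58.0% to 63.0%, a rise of 4.99 points. Inside genes the hairpins rose by 4.03 points and their flanks by 5.89, and outside genes by 0.540 and 3.57. With each window given equal weight, over 578 windows with at least 10 calls in the hairpin in each library, the median difference was 1.11 points in the hairpin and 3.50 in the flanks. These medians were 2.18 and 4.38 points over 315 windows inside genes, and 0.181 and 2.68 over 263 outside. In the profile outside genes with 1 hairpin per locus, the 100 bases before the midpoint differed by 0.241 points and the 100 after it by 1.13, against 5.98 points from 500 to 400 bases before it and 5.06 from 400 to 500 after it. Inside genes this pooled profile showed no such dip, although the medians above were lower in the hairpin there too. The steps beside the midpoint differed by 6.79 and 5.04 points, against 7.48 and 5.21 from 400 to 500 bases before and after it. Outside genes the step from 300 to 200 bases before the midpoint held 13396 WT calls, against 8868 in the step before it, with 1.85 and 1.46 CpGs per hairpin, and its level was 69.2% in WT and 72.5% in TCKO.

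**Figure D2:**
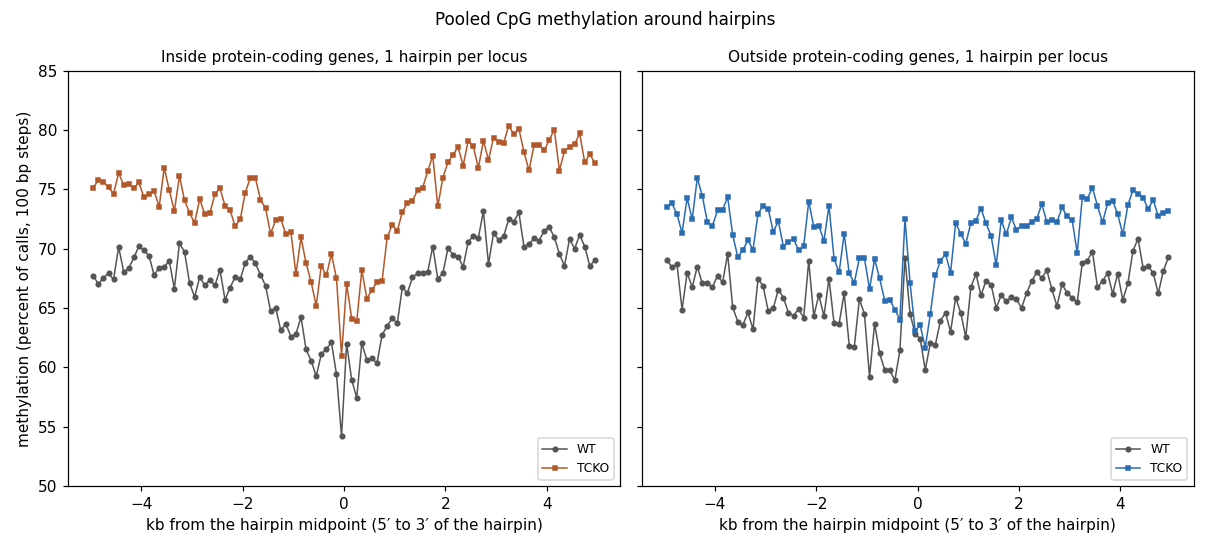
Pooled CpG methylation in 100 bp steps (percent of calls) against distance from the hairpin midpoint, read in the direction of the hairpin, for WT and TCKO and 1 hairpin per locus. The vertical axis starts at 50%. Inside genes the TCKO line stays above WT throughout, and outside genes the lines meet at the midpoint, where they differ by 0.241 and 1.13 points in the steps on either side.

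The gene-hosted windows with the largest gains, 1 per locus, are described next. They were chosen by this difference, so its size is a description. The largest was at Mir3109, a hairpin in an intron of Anxa2, which encodes the calcium-dependent membrane protein annexin A2 (chr9:69456944-69457031, plus strand). In WT 31 of 206 calls were methylated (15.0%) and in TCKO 143 of 182 (78.6%), a gain of 63.5 points (55.0 to 70.3, adjusted exact p = 3.56e-35). The hairpin lies 2921 bp from the nearest annotated Anxa2 start site. The gain spread over the intron, since 22 of the steps of 250 bases within 3 kb of the midpoint had calls in both libraries, 19 of them higher and none lower in TCKO. In the 250 bases before its midpoint, 0 of 12 calls were methylated in WT and 17 of 18 in TCKO, and in the 250 bases after it 8 of 18 and 12 of 14. The single CpG of the mature miR-3109-5p, printed above, had 0 of 3 methylated calls in WT and 3 of 4 in TCKO, too few for a test.

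The second was Mir214 (chr1:162223368-162223477, plus strand), which lies with Mir199a-2 in Dnm3os, a noncoding transcript that runs antisense through an intron of Dnm3 and serves as the precursor of both miRNAs in mesenchyme. Its window went from 13.3% (23 of 173 calls) to 66.5% (113 of 170), a gain of 53.2 points (43.7 to 61.1, adjusted exact p = 2.24e-22). Mir199a-2 (chr1:162217814-162217923), on the same transcript, did not follow it. Around Mir199a-2 0 of 343 calls were methylated in WT, which allows a level of up to 0.875%, and 3 of 351 in TCKO (0.855%), a difference of 0.855 points (−0.388 to 2.48, adjusted exact p = 0.461). Read along the locus in steps of 500 bases, WT was at 7.06% or below in the steps with calls from 7 kb before the Mir214 midpoint to its position, and at 18.9% or below in those up to 3 kb after it. In TCKO the stretch around Mir199a-2, from 6.5 to 4 kb before Mir214, stayed at 1.94% or below. From 2 kb before Mir214 the TCKO level climbed from 29.0% to 74.6%, with 65.0% and 68.8% in the steps from 1.5 to 2.5 kb after it and a lower 44.4%, on 18 calls, in the step before those. Beyond 3 kb after Mir214 both libraries were at 90.5% or above. At the other end, from 8 to 7 kb before Mir214, WT was at 36.1% and 35.8% and TCKO at 85.3% and 69.0%, and in the next step the levels were 2.56% and 12.8%. TCKO was thus higher toward both ends of the stretch with little methylation in WT, and the steps at Mir199a-2 between them stayed almost free of it. With windows of 2 kb to either side Mir199a-2 differed by 5.06 points and passed the test (adjusted exact p = 0.000534).

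**Figure D3:**
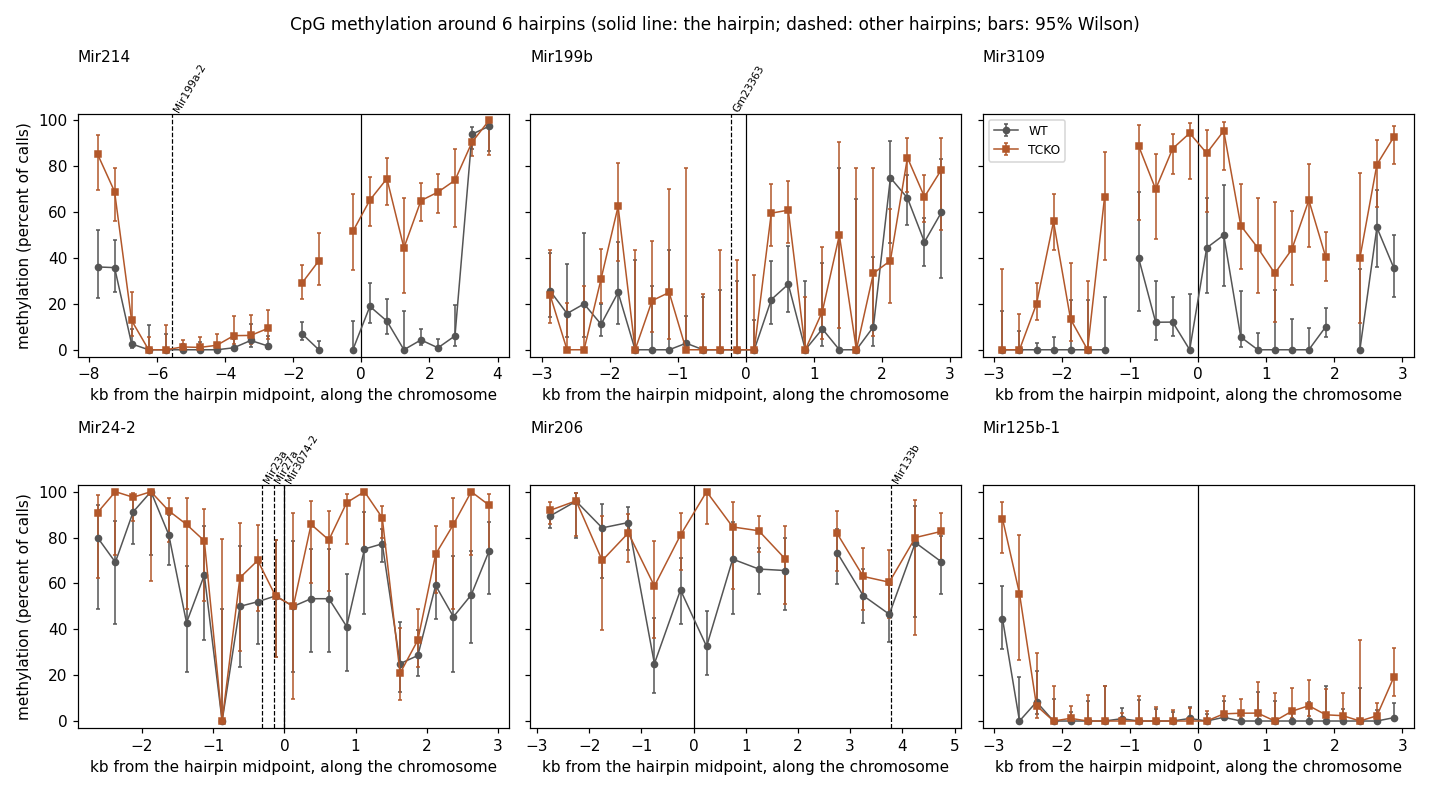
CpG methylation (percent of calls) in WT and TCKO against the distance in kb from 6 hairpins, in steps of 500 bases for Mir214 and Mir206 and of 250 bases for the others, with 95% Wilson intervals; dashed lines mark other hairpins. TCKO leaves WT near Mir214 but not in the steps at Mir199a-2, is higher in 19 of the 22 steps with calls around Mir3109, and differs from WT by at most 6.67 points within 2500 bases of Mir125b-1.

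The other copies of the miR-199 family lie antisense in introns of the remaining dynamin genes and also gained. Dynamins are GTPases that pinch off membrane vesicles. Around Mir199b, in Dnm1, the level rose from 10.6% (18 of 170 calls) to 40.6% (56 of 138), by 29.99 points (20.4 to 39.2, adjusted exact p = 5.62e-08). Within that window the rise lay from 250 to 750 bases after the midpoint, where WT had 21.9% and 28.6% in successive steps and TCKO 59.6% and 60.9%. In the 250 bases on either side of the Mir199b midpoint neither library had a methylated call, with 9 and 26 calls in WT and 6 and 8 in TCKO. Around Mir199a-1, in Dnm2, the level rose from 12.9% (11 of 85) to 34.9% (22 of 63), by 22.0 points (8.23 to 35.5, adjusted exact p = 0.0150). Of the miR-199 and miR-214 hairpins, 3 of 4 were therefore called gains in windows of 1 kb to either side, against 6.90% of all hairpin windows. Mir214 was picked for its large gain, so this count is a description.

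Next by size was Mir3075, in an intron of Zmiz1, a coregulator of transcription, at 17.9% in WT and 69.8% in TCKO (a gain of 51.9 points, 37.7 to 63.3, on 134 and 63 calls). Mir5110, opposite to Bcas3, went from 19.8% to 69.1%. Mir6407, in an intron of the aminopeptidase gene Xpnpep1, went from 43.6% to 89.9%. Mir5114 lies in the UTR of Scd2, a stearoyl-CoA desaturase of fatty acid synthesis, and its window rose from 38.4% (160 of 417 calls) to 83.9% (318 of 379), by 45.5 points (39.3 to 51.2). That window gave the smallest adjusted exact p of the 12, 1.26e-37. Mir6950 lies in Loxl2, which encodes an enzyme that cross-links collagen, and went from 39.2% to 84.0% on 74 and 50 calls, the fewest of the 12. Gm24811 in the sorting nexin gene Snx7 gained 43.4 points. Mir1904 in Pde4d, a cyclic AMP phosphodiesterase, lies 742 bp from a start site of that gene in a window of 112 CpGs, and was the only one of the 12 with a start site in its window. It rose from 17.8% (48 of 269) to 60.7% (128 of 211). Mir3080 in Tcf20 gained 42.8 points, Mir7652 in the UTR of the stress-granule gene G3bp1 gained 42.6, and Mir7031 in the cytokine-signalling adaptor gene Sh2b3 gained 38.4. Across the 12, the highest WT level was 54.3% and the lowest TCKO level 60.7%. Such a separation is favoured by the choice of windows with the largest difference and is no separate result. None of the 12 shared a locus with another hairpin.

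**Figure D4:**
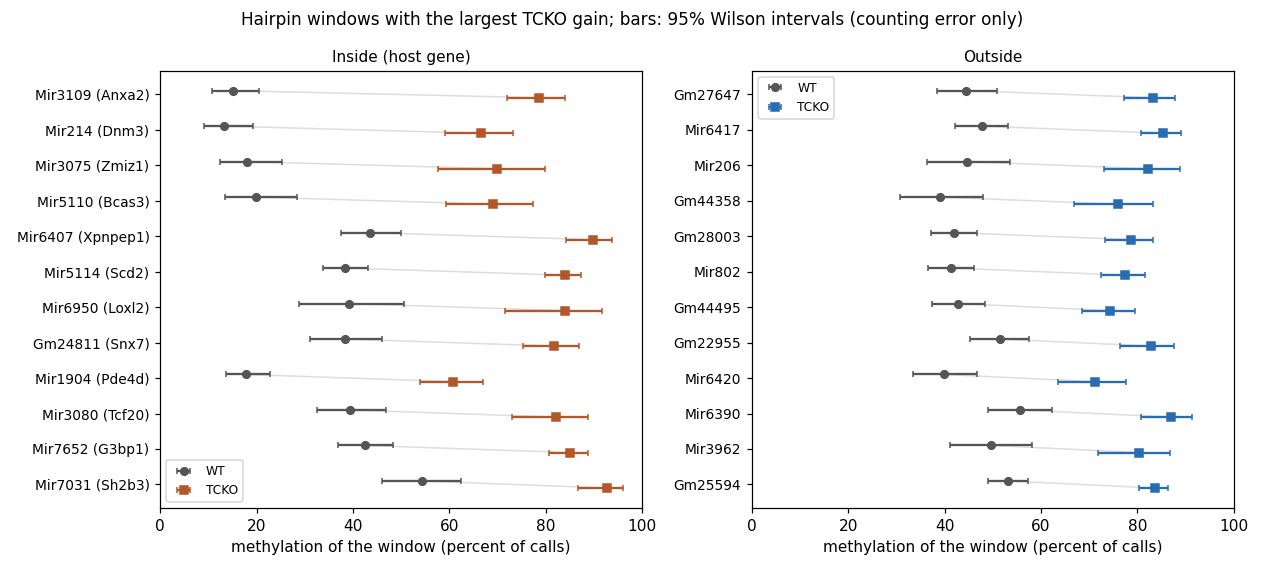
Methylation in percent of calls of the 12 windows with the largest gain inside protein-coding genes (left, host gene in parentheses) and the 12 outside (right), in WT (circles) and TCKO (squares), with 95% Wilson intervals for counting error. Inside, 5 windows start at or below 19.8%; outside, all 12 start between 39.0% and 55.7%.

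Outside protein-coding genes the largest gains were smaller and started from intermediate levels. The 12 windows ran from 39.0% to 55.7% in WT and from 71.2% to 86.9% in TCKO, with gains of 30.4 to 38.7 points and adjusted exact p-values of at most 1.84e-05. Their median distance to the nearest start site of a protein-coding gene was 112864 bp, with a lowest value of 2444 bp. First was Gm27647 (chr14:67074830-67074947, plus strand), the one nearest to a start site, that of Ppp2r2a, a regulatory subunit of protein phosphatase PP2A, where the level went from 44.5% (105 of 236 calls) to 83.2% (158 of 190). In windows of 500 bases to either side its difference was 12.01 points (adjusted exact p = 0.352), so that gain lay in the outer part of the window. Mir6417 rose from 47.6% (151 of 317) to 85.4% (239 of 280). Gm44358 rose from 39.0% to 76.0%.

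Mir206 (chr1:20679010-20679082, plus strand), a miRNA of skeletal muscle that targets connexin 43 and restrains osteoblasts, lies in the noncoding gene Gm28653. Its window rose from 44.7% (55 of 123 calls) to 82.2% (74 of 90), by 37.5 points (24.8 to 48.2, adjusted exact p = 6.79e-07). The rise was centred on the hairpin. In the 500 bases after the midpoint WT had 13 of 40 methylated calls (32.5%) and TCKO 23 of 23, while from 1 to 3 kb before it the libraries differed by −14.2 to 2.47 points. Mir133b on the same noncoding gene went from 59.4% to 71.0% and did not pass the test (11.6 points, 0.723 to 21.8, adjusted exact p = 0.132). With windows of 2 kb to either side the Mir206 difference was 18.8 points, and Mir133b passed at 12.7 points (adjusted exact p = 0.00424).

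Gm28003 and Mir802 both lie on chromosome 16, between Runx1 and Setd4. Runx1 encodes a transcription factor of blood and skeletal progenitors, and its annotated start nearest to Gm28003 is 246639 bp away. The start site nearest to Mir802 is that of Setd4, 215490 bp away. Gm28003 (chr16:93072755-93072822) rose from 41.9% (167 of 399) to 78.7% (203 of 258). Mir802 (chr16:93369720-93369816) rose from 41.3% (168 of 407) to 77.4% (246 of 318), and its mature miR-802-3p holds a CpG with 0 of 5 methylated calls in WT and 2 of 3 in TCKO. The remaining 6 were Gm44495 (31.5 points), Gm22955 (31.4), Mir6420 (31.3), Mir6390 (31.3), Mir3962 (30.8) and Gm25594 (30.4). In all 24 windows inside and outside genes TCKO was higher on both strands when these were read apart. The windows were chosen by the difference over both strands together, which favours this, so it is no independent support. For Gm25594 the plus strand differed by only 2.13 points and the minus strand by 34.7.

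Losses were few and less steady. Gm22121, opposite to Ublcp1 in an intron (chr11:44469013-44469066), fell from 63.4% (97 of 153 calls) to 38.3% (79 of 206), by 25.0 points (adjusted exact p = 6.84e-05). In windows of 500 bases to either side its difference was 3.63 points upward. Gm23159 in the receptor phosphatase gene Ptprd fell from 72.1% to 49.4% (adjusted exact p = 0.00431). That fall did not pass with 500 bases to either side (−14.0 points, adjusted exact p = 0.508) or with 2 kb (−6.23 points, adjusted exact p = 0.170). On plus-strand or minus-strand cytosines alone it did not pass either (adjusted exact p = 0.182 and 0.183). Gm26073 in Sfmbt2 went from 48 of 48 methylated calls to 38 of 45 (adjusted exact p = 0.0258). Gm27325, in a coding exon of Eif3j2, fell by 14.4 points with both strands together, but rose by 26.5 on the plus strand and fell by 58.2 on the minus strand. The minus strand had 18 of 20 methylated calls in WT and 100 of 314 in TCKO, and the plus strand 77 of 139 and 95 of 116. The depth of the minus strand was thus very uneven between the libraries. Gm24187 fell from 63.8% to 50.4%. All 5 carry the Gm names of predicted hairpins, 4 lie inside protein-coding genes, and Gm24187 lies outside.

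miRNAs with published roles in osteoblasts were then read as lists. The lists here and below were chosen with earlier results of these data known. Their shares are therefore descriptions beside the background, and an excess over it was not tested. Of 13 hairpins of miRNAs that promote differentiation, 4 rose (30.8%, against 20.2% of all hairpin windows and 21.8% of tiles), none fell and none reached 20 points, and their median difference was 6.80 points against 4.40 over all hairpins. Those that rose were Mir20a of the miR-17 cluster (69.1% to 82.9%), Mir335 in the imprinted gene Mest (67.6% to 80.8%), Mir29a (75.8% to 86.9%) and Mir218-1 in Slit2 (78.8% to 87.8%). None of these 4 passed when plus-strand cytosines were read alone (adjusted exact p = 0.0773 to 0.730), and Mir335 alone passed in windows of 500 bases to either side. With 2 kb to either side all 4 passed, and 5 further members of the list did. The CpG of the mature miR-335-5p had 15 of 31 methylated calls in WT and 24 of 28 in TCKO. Mir2861 and Mir3960, which share a cluster at the Cdk9 start site and target inhibitors of Runx2 expression, were almost free of methylation in both libraries, at 0.306% and 0.310% in WT and at 0% (0 of 244 calls, which allows up to 1.23%) and 3.16% in TCKO.

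Of 25 hairpins of miRNAs that restrain osteoblasts or target Runx2, 9 rose (36%, against 20.2% of all hairpin windows), none fell and 7 were called gains (28%, against 6.90%), with a median of 9.06 points. One of the 7 is Mir206, described above. The miR-23a, miR-27a and miR-24-2 hairpins form a cluster on chromosome 8 (chr8:84208518-84208921) and their windows overlap. There Mir27a rose from 50.4% to 75.9% (adjusted exact p = 0.00107) and Mir24-2 from 48.6% to 76.0% (adjusted exact p = 0.000904), while Mir23a, at 52.7% and 70.9%, did not pass (adjusted exact p = 0.0724). Mir34c and Mir34b, targets of p53 that lie opposite to Btg4, rose from 36.5% to 58.7% and from 32.9% to 57.1%. Their windows overlap too, so the 7 gains are not 7 separate loci. Mir34a, elsewhere in the genome, went from 72.3% to 80.1% and did not pass (adjusted exact p = 0.303). Mir30c-2 rose from 58.8% to 86.7% and its neighbour Mir30a from 42.4% to 61.1%. Mir138-1 rose from 57.9% to 81.2% on 76 and 48 calls (adjusted exact p = 0.0471), whereas the copy Mir138-2, with the same mature miR-138-5p, was at 66.9% and 64.3% (−2.61 points, −13.8 to 8.87). Mir135a-2 rose by 9.06 points. Mir204 and Mir211, which share a seed and target Runx2, differed by 12.7 and 6.95 points without passing (adjusted exact p = 0.0630 and 0.194). Mir125b-1 was at 0.332% and 1.21% on 602 and 495 calls.

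Within windows of 500 bases to either side, Mir27a, Mir24-2 and Mir34b no longer passed (adjusted exact p = 0.667, 0.269 and 0.374), with differences of 11.4, 17.7 and 2.50 points. Their gains in the wider windows therefore lay partly in DNA more than 500 bases from the hairpin. Mir27a, Mir30a and Mir34c did not pass on plus-strand cytosines alone, nor Mir24-2 on minus-strand cytosines alone. With 2 kb to either side all 9 that rose passed and 8 further members did, among them Mir23a (17.8 points, adjusted exact p = 5.03e-07), Mir34a (12.02 points, adjusted exact p = 9.78e-06) and Mir204 (11.1 points, adjusted exact p = 8.36e-05).

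**Figure D5:**
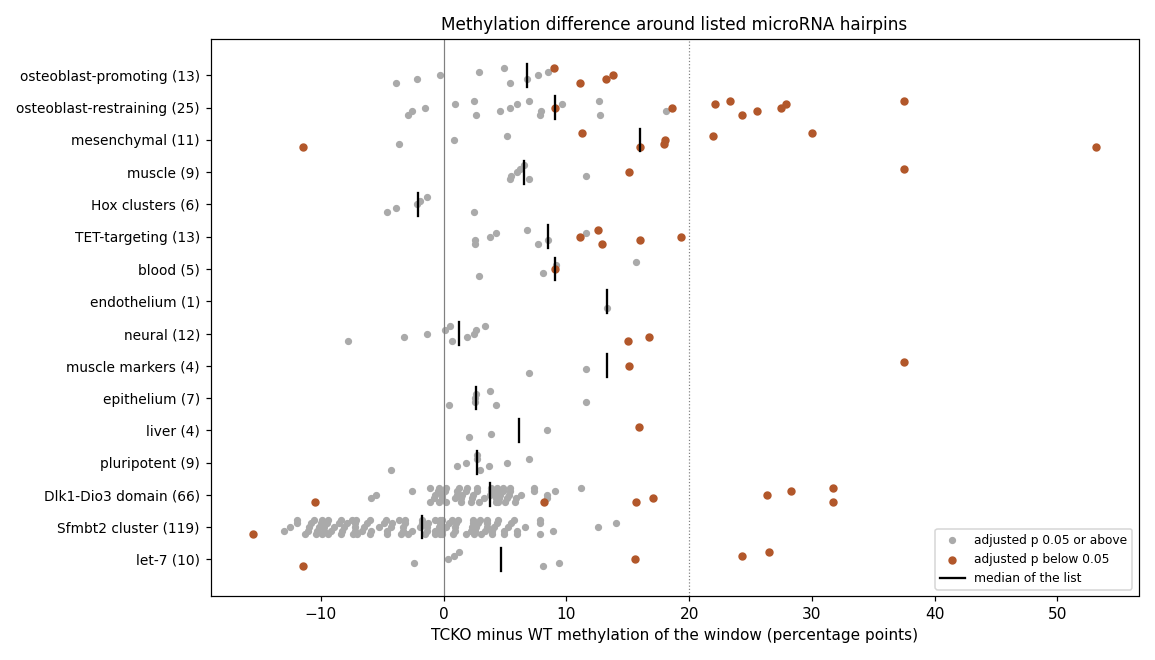
TCKO minus WT difference of each hairpin window (percentage points, horizontal axis) by list, with the number of tested hairpins in parentheses; coloured points have an adjusted p below 0.05, black bars are list medians and the dotted line marks 20 points. The mesenchymal list has the highest median of the lists with more than 10 hairpins, 16.0 points, and the Hox and Sfmbt2 lists lie around or below 0.

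Of 11 hairpins of miRNAs abundant in mesenchymal cells, 7 rose (63.6%, against 20.2% of all hairpin windows), 1 fell (9.09%, against 0.832%) and 3 were gains (27.3%, against 6.90%), all 3 from the dynamin loci above, with a median of 16.0 points. Mir21a, in the UTR of Vmp1, rose from 35.9% to 53.9%, by 23.8 points on the plus strand and 3.53 on the minus strand. Mir22 rose from 42.7% to 58.8% and Mir143, which has roles in smooth muscle, from 78.4% to 89.6%. Mir100 and Mirlet7a-2 lie close together on the host transcript of the miR-100, let-7a-2 and miR-125b-1 cluster and moved in opposite directions. Mir100 rose from 67.0% to 84.9% (adjusted exact p = 0.00877) and Mirlet7a-2 fell from 91.5% to a level of 152 in 190 calls (adjusted exact p = 0.00277). The calls of Mir22 with 500 bases to either side, of Mir143 with 2 kb, of Mir22, Mir143 and Mirlet7a-2 on plus-strand cytosines and of Mir100 and Mir21a on minus-strand cytosines did not hold. Mir140, the cartilage miRNA in Wwp2, was at 80.2% and 76.5% without passing.

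The let-7 family restrains proliferation in many tissues. Of its 10 hairpins 3 rose (30%, against 20.2% of all hairpin windows) and 1 fell (10%, against 0.832%). Called gains were 2 (20%, against 6.90%), which lie side by side on chromosome 13. Mirlet7f-1 rose from 63.4% (109 of 172 calls) to 87.7% (114 of 130), and Mirlet7a-1, whose window overlaps it, from 60.3% (88 of 146) to 86.8% (118 of 136). Mirlet7d, in the same cluster, was at 78.8% and 86.9% without passing (adjusted exact p = 0.117), but passed with 2 kb to either side (14.5 points, adjusted exact p = 0.000408). Mirlet7c-2 rose by 15.6 points, and by 9.06 without passing on plus-strand cytosines alone. Mirlet7i was unmethylated, with 0 of 587 methylated calls in WT, which allows up to 0.511%, and 2 of 647 in TCKO, although its seed is that of the gaining let-7a and let-7f. Methylation around the copies of this family thus ran from nearly none to over 80% in either library.

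None of the 6 hairpins in the Hox clusters (Mir10a, Mir10b, Mir196a-1, Mir196a-2, Mir196b and Mir615) passed the test. Among all hairpin windows 20.2% rose and 0.832% fell. The Hox clusters hold the genes that set position along the body axis. These windows lay between 2.44% and 7.78% in WT and between 1.43% and 4.93% in TCKO, and 5 of the 6 were lower in TCKO. In windows of 2 kb to either side Mir10b (−4.80 points, adjusted exact p = 0.0113) and Mir615 (−2.90 points, adjusted exact p = 0.0295) fell, and on plus-strand cytosines alone Mir196b rose (3.64 points, adjusted exact p = 0.0321).

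The imprinted Dlk1-Dio3 domain on chromosome 12 holds 67 hairpins, 66 with enough calls in 15 loci, and most were highly methylated, with medians of 84.7% and 88.6%. In this domain 7 rose (10.6%, against 20.2% of all hairpin windows), 1 fell (1.52%, against 0.832%) and 4 were gains (6.06%, against 6.90%). The windows of these 4 overlap and form 1 locus, so they are not separate observations. The 4 gains lie over the retrotransposon-like gene Rtl1, most of them on the strand opposite to it: Mir434 (65.4% to 91.7%), Mir432 (58.0% to 86.3%), Mir136 and the overlapping Mir3071 (both 43.4% to 75.2%, in 1 shared window). Around Mir136 TCKO was higher by 44.2 points from 1 kb to 750 bases before the midpoint, and by 48.9 from 2000 to 2250 bases after it. Mir1247, beside Dio3, fell from 13.2% to 2.68% (adjusted exact p = 4.40e-05). Its fall was not called with 500 bases to either side (−3.68 points, adjusted exact p = 0.255) or on plus-strand cytosines alone (−4.17 points, adjusted exact p = 0.211). Allele of origin was not read.

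The 119 hairpins of the rodent-specific cluster in an intron of Sfmbt2 went against the general direction, with a median of −1.76 points, 42 higher and 77 lower. None rose, against 20.2% of all hairpin windows, and 1 fell by the test (0.840%, against 0.832%). The cluster is repetitive, and its windows had a median of 5.33 calls per CpG in WT against 8.77 over all hairpin windows. Since 108 of these windows form 1 chain of overlaps, they are close to a single observation. Without the 119, the hairpins inside genes had a median difference of 5.49 points and 7.63% gained.

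miRNAs known to target Tet messenger RNAs were also read. Of 13 hairpins (miR-22, miR-29, miR-15b, miR-26a and the miR-200 family) 5 rose (38.5%, against 20.2% of all hairpin windows), none fell and none reached 20 points, with a median of 8.53. Mir26a-2 rose most, from 63.0% to 82.3% (adjusted exact p = 0.00242), and Mir15b rose from 79.5% to 92.1%. No hairpin of the miR-200 family passed. Of the 5 that rose, 1 passed with 500 bases to either side and 1 on plus-strand cytosines alone, and Mir22, Mir26a-1, Mir26a-2 and Mir29a passed in neither.

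Among muscle miRNAs 2 of 9 rose (22.2%, against 20.2% of all hairpin windows), Mir206 and Mir1a-2, which went from 74.4% to 89.5%. Beside these, the promoter of Myod1, which marks myoblasts, was at 32.1% and 24.6% and that of Myog at 65.2% and 72.9%, and the part of muscle cells was not tested. The 5 blood miRNAs lay between 51.0% and 81.3% in WT. Of them 1 rose (20%, against 20.2%), Mir155, by 9.10 points. That call was lost with 500 bases to either side (3.68 points, adjusted exact p = 0.644) and on each strand alone. Of 12 neural hairpins 2 rose (16.7%, against 20.2%), Mir128-1 by 15.1 points and Mir153 by 16.8. The median WT level of the list was 5.29%. The calls of Mir128-1 on the plus strand alone (1.72 points) and of Mir153 on the minus strand alone (11.7 points) were lost. None of the 7 epithelial and none of the 9 pluripotency hairpins passed, while 20.2% of all hairpin windows rose. Mir205 did rise with 2 kb to either side, and Mir290a and Mir291a rose on plus-strand cytosines alone. Of 4 liver hairpins 1 rose (25%, against 20.2%), Mir122, by 15.9 points. In windows of 500 bases to either side Mir122 differed by 5.03 points without passing. The endothelial Mir126a, in Egfl7, differed by 13.3 points without passing (adjusted exact p = 0.0592), and by 10.46 with 2 kb to either side, where it passed (adjusted exact p = 0.0230).

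Short strings of transcription factor motifs were looked up in the reference sequence of the windows, on both strands. AACCACA, the core bound by RUNX proteins, was found in 46.1% of the called gains and in 35.5% of the other hairpin windows. It was in 38.3% of all tiles and in 43.8% of tiles called gains, so its higher share was not particular to hairpins. It was present in 10 of the 12 gene-hosted windows with the largest gains and in 5 of the 12 outside. TGACTCA, the AP-1 site, was in 25.5% of gains, 28.2% of the other hairpin windows, 27.6% of tiles and 36.6% of called tiles. In the same order, CAGCTG, an E-box, was in 64.5%, 60.9%, 51.7% and 61.4%, and CATTCCA, the TEAD site, in 27.0%, 25.7%, 28.6% and 33.7%. A match describes the sequence only and is no evidence of binding.

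At the threshold of 30 calls, the windows just inside were Mir3964 (0.606 points), Gm23700 (−3.83) and Gm24307 (1.71), and those just outside Mir344h-1 (−11.5), Mir6922 (9.65) and Gm25817 (−9.23). The 11 hairpins below 30 calls, 1 inside a protein-coding gene and 10 outside, enter no count.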

How the data were processed

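Per the methods, the authors aligned WGBS reads to GRCm38 with BSMAP 2.74, allowing up to 2 mismatches, and kept uniquely mapped reads; removal of duplicates is not stated. The deposited values are counts of methylated and of all calls for each CG cytosine and strand, without normalization. Only these CG tables were used.

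From them, calls were summed within 1 kb of each hairpin midpoint and over 2 kb tiles of the 19 autosomes. Groups were taken from the labels. Levels carry Wilson and differences Newcombe 95% intervals; 0 counts carry a limit of 3 counts. Windows were compared by the 2-sided Fisher exact test, adjusted over all tiles and hairpin windows with at least 30 calls. The code was tested on simulated data. Named hairpins were the 12 loci with the largest gain inside and the 12 outside protein-coding genes, the 5 with the largest loss, the windows at the threshold of 30 calls, and members of miRNA lists. Members and lists were chosen with earlier results of these data known. Alternatives changed the window, strand, weighting, call minimum and rule. Of 2054 hairpins 882 matched a RefSeq hairpin by symbol, strand and position. Computations ran in Python 3.11.15 with pandas 2.3.3, numba 0.67.0, numpy 2.4.6, matplotlib 3.10.9 and scipy 1.17.1.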

Additional observations from a re-analysis of the deposited data

How the results depend on the processing

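With 1 library per genotype no library was left out, and the spread between animals is unknown. No paired analysis was possible because each genotype has 1 library and the labels carry no replicate numbers. Duplicate reads and the 5hmC share cannot be judged from these tables. At a median of 201 and 165 calls a window, many differences of a few points did not pass the test. Some did where the level was low, such as Mir196b at 3.64 points on plus-strand cytosines alone. The cause of the changes below was not tested.

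The number of gains inside genes was 60 to 88 and outside 41 to 62 under every other window, strand, weighting, call minimum and grouping tried, except 28 outside with 2 kb to either side. By rule, gains of at least 40 points numbered 11 inside and 0 outside, with 0 losses inside, and without a minimum difference 271 and 141 gained and 9 and 8 fell. Losses (2 inside and 0 outside) were 0 inside with 500 bp, when 2 were outside, and 0 inside with 2 kb, 4 and 4 with plus-strand cytosines, 3 outside with minus-strand cytosines and 1 outside with the mean of cytosine levels. The pooled difference inside (6.13) was 6.50 with 2 kb, 5.84 and 6.79 with the plus and the minus strand, 6.40 with 1 window per locus, 6.60 without start sites and 6.48 without hairpins in Sfmbt2, a setting chosen after seeing the data. Outside (4.26) it was 2.72 with 500 bp, 4.67 with 2 kb, 6.17 with the mean of cytosine levels and 4.94 outside genes of every other type.

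None of the 24 named gains changed direction, which their choice by a large difference in the same calls favours. With 500 bp 19 of 22 still passed (not Gm27647, Mir3962 and Gm25594), with the plus strand 20 of 22 (not Gm28003 and Gm25594), with the minus strand 20 of 21 (not Mir6420), and with 2 kb all 24. Gm22121 turned to 3.63 points with 500 bp and to 3.25 with the mean of cytosine levels, Gm27325 to 26.5 with the plus strand and 19.1 with that mean, and Gm26073 to 3.17 with 2 kb. Among the 113 other list members, as far as they kept 30 calls, 13 calls were lost and 1 was new with 500 bp, 1 was lost and 25 were new with 2 kb, 16 were lost and 5 new with the plus strand, and 9 were lost and 3 new with the minus strand. With 2 kb Mir2861 passed at 8.48 points and Mir124a-3 at −7.00, against the sign of their narrower windows, and with the plus strand Mir143 was at −2.84.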
